A study of Mus musculus with 4 samples.

Results

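DNA replication and S-phase genes encode the proteins that license replication origins, unwind and copy chromosomes, supply deoxynucleotides and pack the copied DNA. The 42 genes described here were chosen by symbol (10 groups by role), and all 42 had a probe set of their own on the array, out of 19938 genes so measured. Expression was compared in macrophages that were grown from the bone marrow of C57BL/6N mice in 10 ng/mL M-CSF, the macrophage growth factor, until harvest on day 9. M1 cells received 10 ng/mL interferon-γ for 48 h and M2 cells 20 ng/mL interleukin-4 for 48 h. Each phenotype was then measured with vehicle and with 10 ng/mL interleukin-1α (IL-1α, an inflammatory cytokine) over 24 h. Each of the 4 groups was measured on 1 array, so no level has a standard deviation, and the labels leave unsaid whether cultures or animals were separate. The study asked how the phenotypes differ in their response to IL-1α.

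Replication begins when the origin recognition complex, with Cdc6 and Cdt1, loads the ring-shaped Mcm helicase onto DNA in G1. At the entry into S phase, cyclin-dependent kinases lift the retinoblastoma proteins off E2F transcription factors, E2F targets (many of these genes among them) are transcribed, and Cdc45 and the GINS complex turn the loaded Mcm rings into active helicases. Macrophages grown in M-CSF divide in culture, and interferon-γ is known to arrest their growth. Interleukin-4 can drive macrophage proliferation in tissues, a setting other than the cultures used here. No array held cells without interferon-γ or interleukin-4, so a rise in M2 and a fall in M1 cannot be told apart.

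Levels are given as log2 signals on the scale of RMA (robust multi-array average), differences are in log2 units, and a difference of 1 is 2-fold. Levels below 7.617, the median gene's signal across the arrays and called the floor here, were not taken to be above background. Over all probe sets, vehicle and IL-1α arrays correlated at r = 0.9969 within M1 and 0.9958 within M2. The cells carried the markers of their labels: all 7 macrophage markers reached the floor on all 4 arrays, with Adgre1 (F4/80) between 13.21 and 13.53, the nitric oxide synthase Nos2 read 13.00 in M1 vehicle and 6.79 in M2 vehicle, and the arginase Arg1 read 6.75 and 12.48. Of markers of other cells, 4 of 6 neutrophil markers reached the floor, on M2 arrays only, and their summed linear signal was 713 and 746 on the M1 arrays and 1951 and 1869 on the M2 arrays, with Ngp higher by 2.52 in M2 under vehicle. Of 6 progenitor markers only Mpo reached the floor (7.91 and 7.64 in M2), and the summed signal was 666 and 678 in M1 and 826 and 771 in M2. Of 6 lymphocyte markers measured 2 reached the floor (Cd4 and Cd79b), and neither of the 2 erythroid markers measured did. Mast cell and basophil markers reached it in 1 of 4 (Hdc, on M1 arrays) and stromal markers in 2 of 4. Of 5 dendritic cell markers 4 did, with sums of 2262 and 1911 in M1 and 677 and 664 in M2. The part of these other cells in the results was not tested. In RNA from whole cultures, fewer cells in S phase and less RNA per cell cannot be told apart.

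Replication genes were higher in M2 than in M1 as a group. Of the 42 genes, 39 read higher on both M2 arrays than on both M1 arrays, and 3 (Ccne1, Rfc3 and Pola2) read lower on both. Over all genes these shares were 32% and 31.1%, so that 63% of all genes did not overlap between phenotypes in one direction or the other. Among the 39, Slbp was counted with 8.890 in M2 vehicle against 8.889 in M1 IL-1α. Under vehicle the median difference over the 42 genes was 0.81 (range -1.40 to 2.43), against 0.03 over all 19938 genes. Between the IL-1α arrays it was 0.96 (range -1.31 to 2.85), against -0.03. At the 2-fold threshold, 14 genes were higher and 1 was lower in M2 under vehicle, where 7.03% of all genes tested were 2-fold higher and 6.83% 2-fold lower. With IL-1α, 18 were higher and 1 lower, against 8.15% and 6.06%. The 14 genes were Rrm2, Dut, Pole, Uhrf1, Rrm1, Mcm2 to Mcm7, Pola1, Lig1 and Tk1. All 14 were again past 2-fold between the IL-1α arrays, joined by Exo1, Fen1, Gins1 and Mcm10. Just short of the threshold under vehicle were Prim1 and Tyms, both at 0.98.

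**Figure D1:**
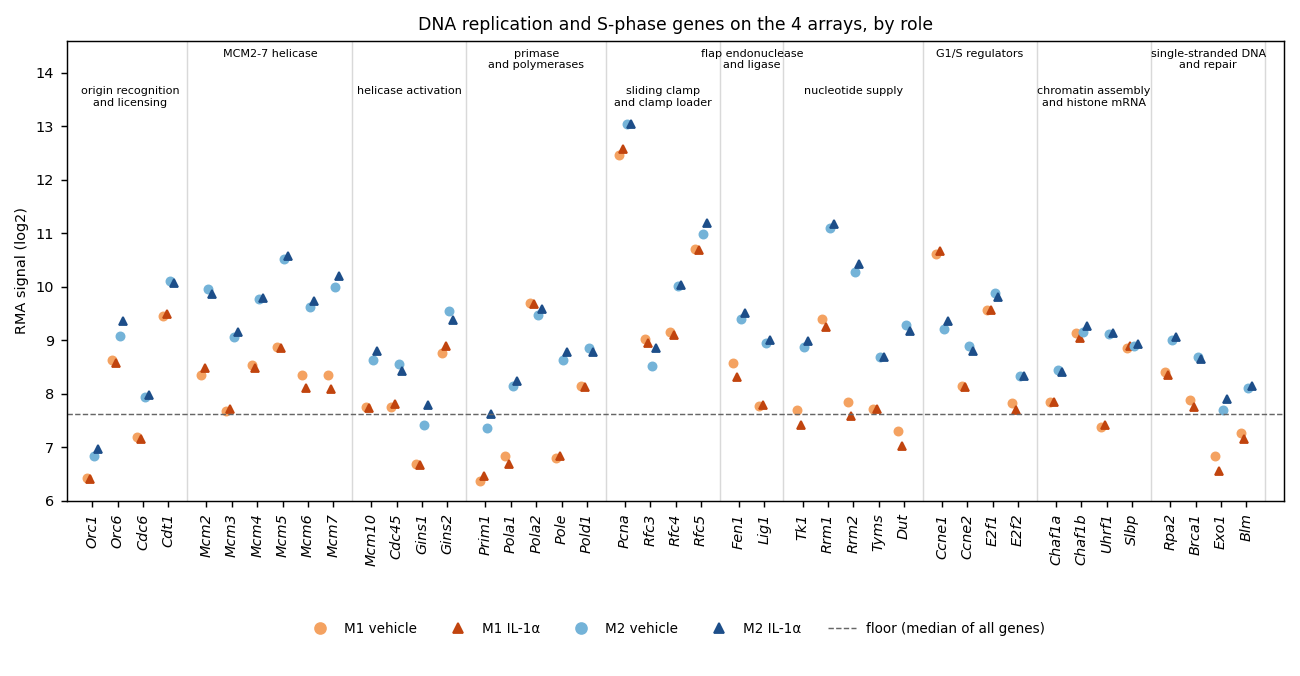
RMA signal (log2 axis) of each of the 42 genes on the 4 arrays, grouped by role, with 1 point per array and a dashed line at the floor of 7.617. The M2 points lie above the M1 points in 39 genes, and the exceptions are Pola2, Rfc3 and Ccne1.

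Of the 42 genes, 30 reached the floor on all 4 arrays. Over these 30, the median M2 minus M1 difference was 0.77 under vehicle and 0.70 with IL-1α. The larger median with IL-1α over all 42 genes was thus not seen in them. At the 2-fold threshold, 8 of the 30 were higher under vehicle and 10 with IL-1α. Orc1 and Prim1 stayed under the floor on all 4 arrays. Blm, Cdc6, Dut, Exo1, Gins1, Pola1, Pole and Uhrf1 reached it on M2 arrays only, so the sizes of their differences rest on M1 levels not shown to be above background. Rrm2 and Tk1 missed it in M1 IL-1α. A limma model with phenotype and treatment as additive terms was fitted to the 10625 genes that reached the floor, 40 of the 42 among them. It called 35 of these higher in M2 and 2 lower (Ccne1 and Rfc3), with Pola2, Chaf1b and Slbp not called, at a Benjamini-Hochberg adjusted p of 0.05. The same model called 33.2% of all genes higher and 29.3% lower. The 8 genes at the floor on M2 arrays only entered the fit through the arrays where they were high, and all 8 are among those called higher. Of the 30 genes at the floor on all 4 arrays, the model called 25 higher and 2 lower, with 3 not called, beside 32% and 29.7% of all genes so measured. Its p-values set each effect against the departure from additivity, with 1 residual degree of freedom per gene and 10.05 from the prior, so the spread between cultures is not in them.

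Many replication genes are textbook targets of E2F factors, so the RefSeq promoter windows (assembly GRCm38.p6, from 250 bases before to 50 after a transcription start) were searched for letters that E2F factors bind. The 5 words searched, on both strands, were TTTCCCGC, TTTCGCGC, TTTGGCGC, TTTGCCGC and TTCCCGCC; the first and last can overlap. Of the 36 genes with a window, 17 held at least 1 such word (18 of 42 windows, 42.9%), whereas 3.89% of all 32851 windows and 6.80% of the windows of genes at the floor did. Upstream stretches of 8 of these 17 genes are shown because they span the range of the 17 under vehicle. They run from genes more than 3-fold higher in M2 to Rfc3, which was lower. Each reads 5′ to 3′ on the gene's strand, with the E2F words in capitals.
Mcm5, chr8:75109334-75109393, plus strand: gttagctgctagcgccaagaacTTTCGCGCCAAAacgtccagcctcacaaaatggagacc
Mcm6, chr1:128359719-128359778, minus strand: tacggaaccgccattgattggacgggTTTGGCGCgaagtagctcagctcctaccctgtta
Mcm7, chr5:138172015-138172074, minus strand: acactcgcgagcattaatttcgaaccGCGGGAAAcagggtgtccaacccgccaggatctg
Cdc6, chr11:98907987-98908046, plus strand: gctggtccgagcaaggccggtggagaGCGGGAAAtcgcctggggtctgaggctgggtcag
Pola1, chrX:93632260-93632319, minus strand: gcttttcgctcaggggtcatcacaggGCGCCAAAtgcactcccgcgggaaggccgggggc
Rrm1, chr7:102441602-102441661, plus strand: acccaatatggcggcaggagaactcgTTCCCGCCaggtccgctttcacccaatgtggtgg
Uhrf1, chr17:56303263-56303322, plus strand: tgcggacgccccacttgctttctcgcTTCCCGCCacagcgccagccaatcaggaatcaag
Rfc3, chr5:151651209-151651244, minus strand: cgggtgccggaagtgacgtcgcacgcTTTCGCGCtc

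In Mcm5 the capitals hold 2 overlapping words, TTTCGCGC on the plus strand and TTTGGCGC on the minus strand. The nearest word lying wholly upstream of the start began at base -10 in Rfc3, -47 in Mcm6, -48 in Uhrf1, -67 in Rrm1, -138 in Cdc6 and Pola1, -149 in Mcm5 and -165 in Mcm7, counted from the start as 0. A match is a description of letters, not a measured binding site. The 17 genes with a word had a median M2 minus M1 difference of 0.98 under vehicle (range -0.51 to 1.73) and the 19 without had 0.81 (range -1.40 to 2.43). The ranges overlap over most of their width, and Rrm2, with the largest difference, was among the 19 without. The CCAAT box, bound by the factor NF-Y, stood in 59.5% of the replication windows, in 36.9% of the windows of genes at the floor and in 37.4% of all windows. Mitosis genes differed in their letters: of the 21 windows of 20 genes, 4.76% held an E2F word, 81.0% held CCAAT and 71.4% held TTTGAA, the cell cycle homology region (CHR) word through which the MuvB complex acts on mitotic genes. TTTGAA stood in 9.52% of the replication windows, in 11.9% of the windows of genes at the floor and in 17.9% of all windows.

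**Figure D2:**
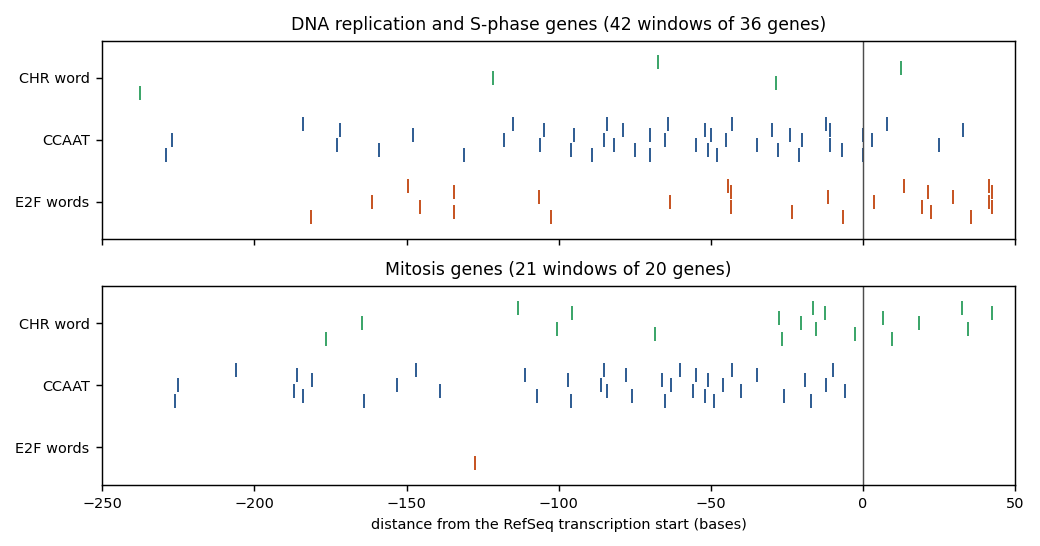
Positions of E2F words, CCAAT and the CHR word TTTGAA (1 tick per match, either strand; height within a band only spreads the ticks) against distance from the RefSeq transcription start in bases. E2F words stand in 42.9% of the replication windows and 4.76% of the mitosis windows, and CHR words in 9.52% and 71.4%.

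The 6 subunits of the Mcm helicase moved together. Mcm7 read 8.35 in M1 vehicle, 8.09 in M1 IL-1α, 9.99 in M2 vehicle and 10.20 in M2 IL-1α, a difference of 3.13-fold under vehicle and 4.30-fold with IL-1α. Mcm5 read 8.88, 8.85, 10.52 and 10.58 in the same order, 3.11-fold and 3.32-fold. Mcm2, the subunit that also chaperones histones, read 8.35, 8.47, 9.95 and 9.85. All 6 reached the floor on all 4 arrays, and their differences ran from 1.22 (Mcm4) to 1.64 (Mcm7) under vehicle and from 1.31 to 2.11 with IL-1α. limma called all 6 higher in M2, beside 33.2% of all genes. The effects ran from 1.27 ± 0.08 (SE) for Mcm4 to 1.88 ± 0.11 for Mcm7, with limma adjusted p from 3.61e-09 to 1.23e-07.

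The factors that load this helicase differed less. Cdt1, the loader that geminin inhibits, read 9.46 and 9.49 in M1 and 10.12 and 10.06 in M2, a difference of 0.66 under vehicle. Orc6, the smallest origin recognition subunit, read 8.63 and 8.58 in M1 and 9.08 and 9.36 in M2. Cdc6, the ATPase that completes the loader, was under the floor in M1 (7.19 and 7.16) and above it in M2 (7.94 and 7.98). None of these genes reached 2-fold, while limma called all 3 higher, beside 33.2% of all genes. Cdc6 entered the fit through its M2 arrays only. Orc1 ran from 6.40 to 6.96 and has no level shown above background.

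Of the genes that activate the helicase, limma called all 4 higher in M2, beside 33.2% of all genes. Mcm10, a factor for origin firing, read 7.74 and 7.73 in M1 and 8.64 and 8.80 in M2. Cdc45, the helicase cofactor, read 7.74, 7.81, 8.56 and 8.43. The GINS subunit Gins2 was higher by 0.79 under vehicle and 0.49 with IL-1α, and Gins1 by 0.72 and 1.12, with Gins1 above the floor in M2 IL-1α alone.

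Primase and the polymerases differed among themselves. Pole, the catalytic subunit of the leading-strand polymerase ε, read 6.80 and 6.83 in M1, under the floor, and 8.64 and 8.78 in M2, a difference of 1.84 under vehicle. Pola1, the catalytic subunit of polymerase α, which starts each DNA strand, read 6.83, 6.69, 8.14 and 8.24. Its partner subunit Pola2 read 9.69, 9.68, 9.46 and 9.58, and limma did not call its phenotype effect of -0.17 ± 0.08 (adjusted p = 0.0896). Pold1, the catalytic subunit of the lagging-strand polymerase δ, was higher in M2 by 0.72 and 0.65. Prim1, the primase that lays RNA primers, read 6.37 and 6.45 in M1 and 7.35 and 7.61 in M2, all under the floor.

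The sliding clamp Pcna, which tethers polymerases to DNA, read 12.46 and 12.58 in M1 and 13.04 and 13.03 in M2, a difference of 0.57 under vehicle and 0.45 with IL-1α. Its pair of probe sets gave 0.58 and 0.57 under vehicle. Of the clamp loader subunits, Rfc4 was higher in M2 by 0.86 and 0.94, and Rfc5 by 0.28 and 0.51. Rfc3 went the other way, with 9.02 and 8.94 in M1 against 8.52 and 8.85 in M2. limma called Rfc3 lower in M2 by 0.30 (effect -0.30 ± 0.11 SE, adjusted p = 0.0295), and the difference was -0.51 under vehicle but -0.09 with IL-1α. On the lagging strand, the flap endonuclease Fen1 read 8.58 and 8.31 in M1 and 9.39 and 9.50 in M2, and the DNA ligase Lig1 read 7.76, 7.78, 8.95 and 9.01.

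Nucleotide supply held the largest differences, and limma called all 5 genes higher in M2, beside 33.2% of all genes. Ribonucleotide reductase makes deoxynucleotides from ribonucleotides. Its S-phase subunit Rrm2 read 7.84 in M1 vehicle, 7.58 in M1 IL-1α, 10.27 in M2 vehicle and 10.43 in M2 IL-1α, a difference of 5.39-fold under vehicle (limma effect over both pairs 2.64 ± 0.11 SE, adjusted p = 1.07e-09). With IL-1α the M1 level was under the floor, so that difference (2.85) has no firm size. The large subunit Rrm1 read 9.39, 9.24, 11.10 and 11.17. Dut, which removes dUTP and so keeps uracil out of DNA, read 7.30 and 7.01 in M1, under the floor, and 9.28 and 9.18 in M2. The thymidylate synthase Tyms was higher by 0.98 and 0.97, and the thymidine kinase Tk1 by 1.17 and 1.58. Both probe sets of Tk1 were higher in M2 under vehicle, but one by 1.58, from M1 levels under the floor, and the other by 0.76, from M1 levels above it.

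Among regulators of the G1/S step, the cyclins E went opposite ways. Ccne1, a cyclin that drives Cdk2 into S phase, read 10.61 and 10.67 in M1 and 9.21 and 9.36 in M2, 2.64-fold lower in M2 under vehicle and 2.48-fold lower with IL-1α. limma gave an effect of -1.36 ± 0.07 (adjusted p = 1.76e-08). Its paralogue Ccne2 read 8.13, 8.12, 8.89 and 8.80 and was called higher in M2 by 0.72 ± 0.09. The activator E2f1 differed by 0.33 under vehicle and 0.24 with IL-1α, and E2f2 by 0.50 and 0.62, all higher in M2 and called by limma.

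In chromatin assembly, Uhrf1, which brings the maintenance methyltransferase to newly copied DNA, read 7.38 and 7.41 in M1, under the floor, and 9.11 and 9.14 in M2. The chromatin assembly factor subunit Chaf1a was higher by 0.58 and 0.57, while Chaf1b differed by 0.03 and 0.22 and Slbp, the binding protein of histone mRNA, by 0.05 in both pairs. limma called neither Chaf1b (0.12 ± 0.09, adjusted p = 0.243) nor Slbp (0.05 ± 0.09, adjusted p = 0.667). The sign for Slbp between the IL-1α arrays turned with a further quantile normalisation, and its probe sets differed in sign there (-0.04 and 0.13). The 4 genes of single-stranded DNA and repair were called higher, beside 33.2% of all genes. Rpa2, a subunit of the protein that coats single strands, differed by 0.61 and 0.71, and the repair factor Brca1 by 0.81 and 0.90. The helicase Blm differed by 0.83 and 0.99, and the exonuclease Exo1 by 0.85 and 1.35. Blm and Exo1 were under the floor on both M1 arrays, so their differences have no firm size, and they entered the fit through their M2 arrays only.

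The subunits of these complexes outside the 42 genes were read beside them; this set was drawn up after the values had been seen. Within the origin recognition complex, Orc3, Orc4 and Orc5 were lower in M2 by 0.35, 0.41 and 0.62 under vehicle (differences of -0.35, -0.41 and -0.62), whereas Orc2 was higher by 0.34. limma called all 4, where it called 33.2% of all genes higher and 29.3% lower. In polymerase ε, Pole2 was higher by 2.08, close to Pole, but the histone-fold subunits Pole3 and Pole4 differed by 0.21 and 0.04. In polymerase δ, Pold2 was higher by 0.34 and Pold3 lower (-0.42). The primase subunit Prim2 was higher by 1.04, beside 0.98 for Prim1. Gins3 and Gins4 differed by -0.01 and 0.34, beneath Gins1 and Gins2. Rrm2b, the reductase subunit that p53 induces outside S phase, was lower in M2 (-0.51), beside 2.43 for Rrm2. The 6 Mcm subunits, by comparison, ran from 1.22 to 1.64.

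**Figure D3:**
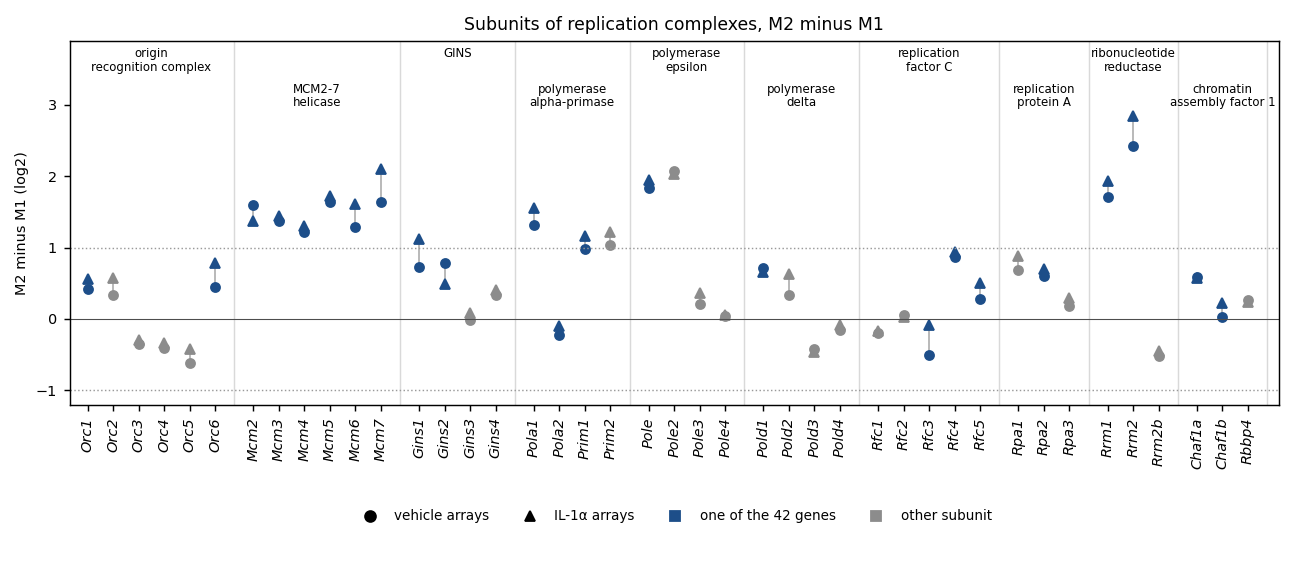
M2 minus M1 differences (log2) of the subunits of 10 complexes, as circles for the vehicle arrays and triangles for the IL-1α arrays, with the 42 genes in blue and other subunits in grey. All 6 Mcm subunits lie above 1. The subunits of origin recognition, GINS, polymerase α-primase, polymerase δ, the clamp loader and the reductase lie on both sides of 0.

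Beyond the 42 genes, lists of related genes were read on the same arrays. Of all genes in the limma fit, 33.2% were called higher and 29.3% lower in M2, the shares to set beside the counts of each list. Of 36 other replication genes measured, 30 were in the limma fit, which called 17 higher and 6 lower in M2 (median 0.28 under vehicle). The highest were Pole2, the nuclease Dna2 (1.31), the firing factor Ticrr (1.09), Prim2 and the fork factor Wdhd1 (0.94). Pole2 and Ticrr were under the floor in M1, and 5 of the 30 reached it on M2 arrays only. The lowest were Mcm9, a helicase of recombination repair (-1.31), Orc5, Pold3, Orc4 and Orc3. Of 10 other nucleotide enzymes in the fit, 6 were called higher and 3 lower. Ctps (0.94), Nme1 (0.85), the thymidylate kinase Dtymk (0.80), Dctd (0.76) and Umps (0.66) were called higher, as was Cad (0.41). Ctps was under the floor on both vehicle arrays, so its difference has no firm size. Lower in M2 were the salvage kinase Dck (2.29-fold lower), the deoxynucleotide hydrolase Samhd1 (-0.72) and Rrm2b, with Tk2 not called (-0.21). Samhd1 read 13.69 and 13.67 in M1 and 12.97 and 12.88 in M2.

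Of 7 genes of replication-coupled chromatin in the fit, 4 were called higher and 1 lower, against 33.2% and 29.3% of all genes. The clamp-associated factor Pclaf (1.98), Asf1b (2.83-fold), Atad2 (0.54) and Ezh2 (0.21) were called higher and the histone chaperone Asf1a lower (-0.90), while the maintenance methyltransferase Dnmt1 (0.09) and Nasp (-0.01) were not called. Pclaf was under the floor on both M1 arrays and Asf1a in M2 vehicle (7.59), so the vehicle difference of neither has a firm size. Of 11 checkpoint and repair genes in the fit, 9 were called higher and 0 lower (Atr and Msh6 were not called), led by Fancd2 (1.67), Brca2 (1.21), Rad54l (1.10), the kinase Chek1 (1.07) and Wee1 (0.78). The first 4 of these were under the floor in M1. Of the 11 genes, 6 reached the floor on M2 arrays only, these 4 and Msh6 among them. They entered the fit through the arrays where they were high, and all of the 6 but Msh6 were called higher. Lowest were the kinase Atr (-0.16), Msh6 (0.17, under the floor on both vehicle arrays), Usp1 (0.21), Brip1 (0.35) and Fanca (0.36).

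Cell cycle entry genes went both ways. Of 25 in the fit, limma called 12 higher and 6 lower in M2 (median 0.07 under vehicle), against 33.2% and 29.3% of all genes. Myc, the growth-promoting transcription factor, read 7.12 and 6.99 in M1 and 11.03 and 11.17 in M2, a difference of 3.91 from an M1 level under the floor. Cyclin A2 (Ccna2), the S-phase cyclin, was higher by 3.32, from M1 levels also under the floor, the repressor E2f8 by 1.90, Fbxo5 by 1.47, and the Cdk inhibitor Cdkn2c by 1.30. E2f8 and Fbxo5 were under the floor in M1 as well, while Cdkn2c was above it on all 4 arrays. In contrast, all 3 cyclins D were called lower in M2. Ccnd2 read 11.44 and 11.32 in M1 and 8.16 and 8.48 in M2 (-3.28 under vehicle), Ccnd3 differed by -1.34 and Ccnd1 by -0.29. Of the retinoblastoma family, Rbl1 (p107) was called lower (-0.96), while Rb1 (-0.04) and Rbl2 (0.07) were not called. Of the other Cdk inhibitors, Cdkn1c was called higher (0.70), and Cdkn1b (-0.22), Cdkn2a (-0.23) and Cdkn2d (-0.11) were not called. E2f5 was at -0.58.

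Mitosis genes were read on the same arrays. Of 21 in the fit, limma called 20 higher in M2 and 1 lower, against 33.2% and 29.3% of all genes. Over the 23 measured the median difference was 1.57 under vehicle and 1.71 with IL-1α, against 0.81 and 0.96 over the 42 replication genes; whether the lists differ was not tested. Highest were Ccnb2 (3.16), Kif11 (2.71), Plk1 (2.69), Kif20a (2.68) and Bub1 (2.36), all under the floor in M1, and the spindle factor Tpx2 was lower (-0.89). Of the mitosis genes, 12 reached the floor on M2 arrays only and 8 on all 4. Most thus entered the fit through the arrays where they were high, and the sizes of many of these differences are uncertain. Of the 8 at the floor on all 4 arrays, limma called 7 higher and 1 lower. Their median difference was 1.23 under vehicle and 1.43 with IL-1α, beside 0.77 and 0.70 over the 30 replication genes so measured.

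**Figure D4:**
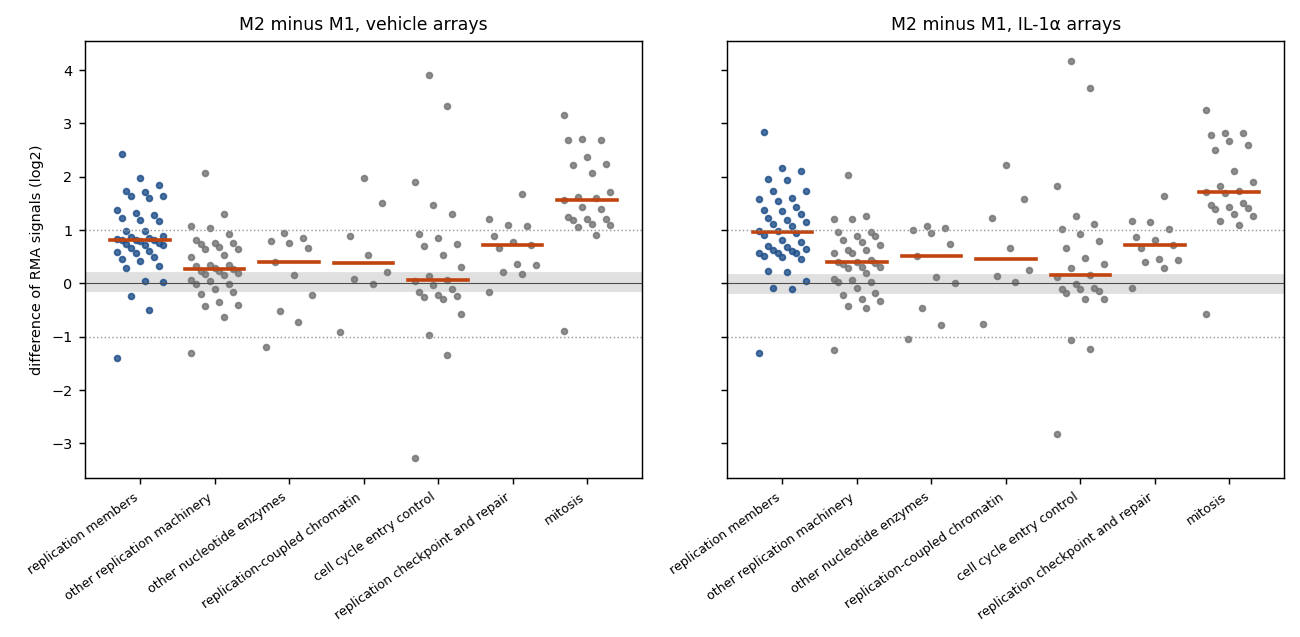
M2 minus M1 differences (log2) of each gene in the replication set (blue) and in the related lists (grey), left for the vehicle arrays and right for the IL-1α arrays, with a red bar at each median, the grey band holding the middle quartiles of all genes and dotted lines at 2-fold. The median of the replication genes is 0.81 under vehicle and 0.96 with IL-1α, and that of the mitosis genes 1.57 and 1.71.

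The replication genes answered IL-1α little in either phenotype. None of the 42 reached 2-fold in M1 or in M2, where 0% and 0.35% of all genes tested were 2-fold higher. In M1 the differences ran from -0.29 (Tk1) to 0.13 (Mcm2 and Gins2), with a median of -0.02 and 29 of 42 below 0, against 50.8% of the genes at the floor and 46% of all genes. In M2 they ran from -0.17 (Gins2) to 0.38 (Gins1), with a median of 0.06 and 29 of 42 above 0, against 69.3% of genes at the floor and 51.9% of all genes. The share above 0 in M2 depended on the scaling, since a further quantile normalisation left 21 of 42 above 0 with a median of -0.0002. For IL-1α, fitted as one effect over both phenotypes, limma called 0 of the 40 genes and 0 of all 10625. At an unadjusted p under 0.05 there were 0 of the 40 and 646 of all genes (6.08%), and the smallest limma adjusted p among the 40 was 0.846.

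The largest single differences in M1 were below 0 and those in M2 above 0. In M1, 7 genes differed by more than 0.2, all lower with IL-1α: Tk1 and Exo1 at -0.29, Dut at -0.29, Fen1 at -0.27, Mcm7 and Rrm2 at -0.26, and Mcm6 at -0.23. In the same pair 4.33% of genes at the floor and 4.2% of all genes were lower by more than 0.2. In M2, 7 genes differed by more than 0.2, all higher: Gins1 at 0.38, Rfc3 at 0.33, Orc6 at 0.28, Prim1 at 0.26, Exo1 at 0.21, and Mcm7 and Rfc5 at 0.20. In that pair 12.5% of genes at the floor and 8.63% of all genes were higher by more than 0.2, and the median over genes at the floor was 0.05. Dut and Exo1 were under the floor on both M1 arrays, so their M1 differences rest on levels not shown to be above background. Prim1 was under the floor on all 4 arrays. Rrm2 and Tk1 were under it in M1 IL-1α, and Gins1 in M2 vehicle (7.41). Over all genes at the floor, the differences had a standard deviation of 0.11 in M1 and 0.18 in M2. The cut of 0.2 lies above both, so the genes named here exceed 1 standard deviation by the way they were picked. No replicate stands behind any of these differences.

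The response difference, M2 minus M1, is the contrast the study was built for. Its median over the 42 genes was 0.11 (range -0.30 to 0.49), against 0.06 over all genes at the floor, and 31 of 42 were above 0, against 66.1% of genes at the floor and 49.7% of all genes. Under a further quantile normalisation the median was 0.04 and 24 of 42 were above 0. None of the 42 reached 1 in either direction, against 0.32% of all genes upward and 0% downward. The 4 arrays leave no degree of freedom to test this contrast. The phenotype difference under vehicle and that with IL-1α, which share no array, correlated over the 42 genes (Pearson r = 0.966, Spearman rho = 0.948). This is a description across genes that are not independent. The same correlation over all genes is not given here, so nothing particular to the replication genes is read from it.

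**Figure D5:**
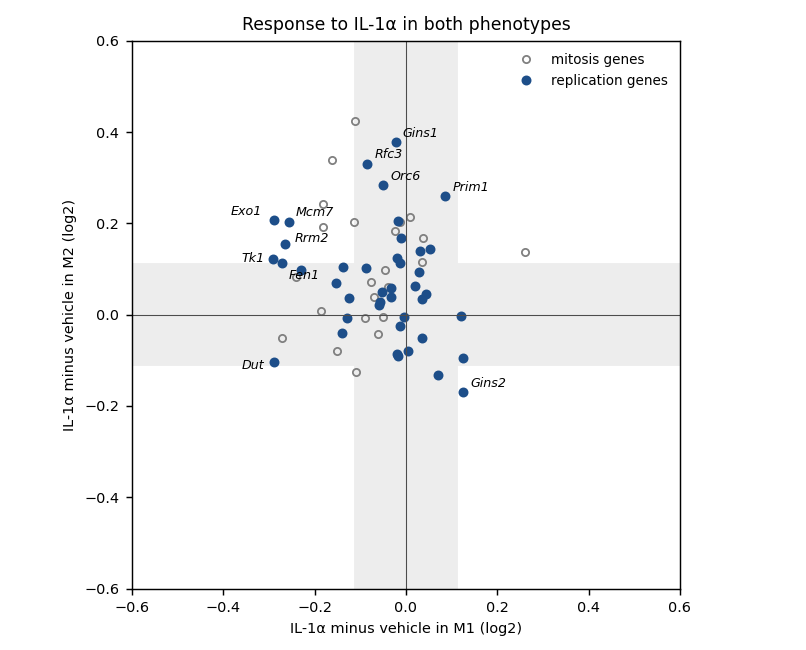
Difference between IL-1α and vehicle (log2) in M1 on the horizontal axis and in M2 on the vertical axis for the 42 replication genes (blue) and the mitosis genes (open), with grey bands of 1 standard deviation (0.11) of all genes in the M1 pair. All 42 genes lie between -0.29 and 0.38 on both axes, and 22 of them lie below 0 in M1 and above 0 in M2, a count that rests on signs in M2 that turned for Blm, Lig1, Mcm4, Mcm5, Rfc4, Rpa2, Slbp and Uhrf1 under a further quantile normalisation.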

How the data were processed

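Single-colour Affymetrix arrays, 1 per group, were read from the series' value table, whose rows are probe sets. The deposited values are log2 signals that the authors made with RMA, in the program Affymetrix Expression Console according to the labels (per the submitters' processing notes); versions and settings are not given in the sources used here. The values run from 3.09 to 14.47 with array medians of 7.344, 7.379, 7.348 and 7.317 (vehicle then IL-1α, M1 before M2), and the log2 base is read from that scale. RMA sets arrays to a common distribution, so a global difference in RNA output is removed, and it compresses differences among dim probe sets. Precision is limited by the number of arrays.

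The table has 35556 rows; the 21789 to which GEO's annotation gives 1 gene were used, and symbols were updated through Entrez numbers (21698 matched a RefSeq table of assembly GRCm38.p6). The 1621 rows with several genes and 12146 with none were left out. Where a gene had more than 1 probe set (3 of the 42 genes), their mean was taken. Differences between single arrays have no replicate check. A pair of arrays was compared for genes at the floor on either array. limma 3.58.1 (R 4.3.3; lmFit, eBayes with a trend) used all 4 arrays with phenotype and treatment as additive terms, with Benjamini-Hochberg adjustment over all 10625 genes. The steps were tested on simulated data. The members and the gene lists were chosen with earlier results of these data known. All 42 members could be named; of each related list, the 5 highest and 5 lowest differences under vehicle among genes at the floor on any array, with cyclins, Cdk inhibitors and retinoblastoma family genes in full. Promoter sequences are RefSeq's, with 36 of 42 symbols matched (the others are Mcm4, Gins1, Gins2, Pole, Ccne2 and Exo1). The alternatives tried were the brightest probe set, loess centring, quantile normalisation on top, 1.5-fold, a floor left out or raised to the 75th percentile (9.635), and eBayes robust or without trend. A floor on the mean of the 4 arrays was added after seeing the data.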

Additional observations from a re-analysis of the deposited data

Results flagged for a closer look

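The replication genes were marked for a closer look because their median difference between IL-1α and vehicle had opposite signs in the phenotypes. The median response over the 42 genes was -0.02 in M1 and 0.06 in M2, and the median of the gene-wise response differences was 0.11. With 1 array per group this difference was not tested. The opposite signs were not kept under every setting: a further quantile normalisation put the M2 median at -0.0002 and the response difference at 0.04, and a floor at the 75th percentile gave medians of 0.02 in M1 and 0.04 in M2.

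Among single genes, 6 differed by more than the standard deviation of the M1 pair (0.11 over all genes) in opposite directions, also untested, as did 5.95% of all genes at the floor on any array. Against the standard deviation of each pair (0.18 in M2), only Exo1 and Mcm7 did, 4.76% of the 42 genes beside 3.12% of all genes. The response in M2 minus that in M1 was 0.49 for the exonuclease Exo1 (6.84 to 6.55 in M1, 7.69 to 7.90 in M2, under the floor in M1). It was 0.46 for the helicase subunit Mcm7 (8.35 to 8.09 in M1, 9.99 to 10.20 in M2). It was 0.42 for the reductase subunit Rrm2, 0.41 for the kinase Tk1 and 0.39 for the endonuclease Fen1, each lower with IL-1α in M1 and higher in M2. Gins2 went the other way, at -0.30 (8.77 to 8.89 in M1, 9.55 to 9.38 in M2). Of these 6 genes, Rrm2 (7.58) and Tk1 (7.41) were under the floor in M1 IL-1α, so their falls in M1 have no firm size. The probe sets of Tk1 rose by 0.23 and 0.02 in M2, so its place among the 6 rests on the first of them.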

How the results depend on the processing

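No paired analysis was possible because each group holds 1 array. At 1.5-fold, the count of replication genes higher in M2 was 28 under vehicle and 29 with IL-1α, in place of 14 and 18, while 14.1% and 16.6% of all genes tested were then higher. A floor raised to the 75th percentile leaves 13 of the 42 genes in the vehicle pair and 14 in the IL-1α pair; with it these counts were 6 and 7, the median between the IL-1α arrays was 1.13 in place of 0.96, and limma called 13 genes for phenotype in place of 37. Under no floor, the brightest probe set, loess centring, quantile normalisation on top and a floor on the mean of the 4 arrays (chosen after seeing the data), the counts ran from 13 to 14 under vehicle and from 15 to 20 with IL-1α, and those of limma from 33 to 38; eBayes without the trend and robust eBayes each gave 37. No member reached even 1.5-fold for IL-1α in either phenotype. limma called no replication gene for IL-1α under any setting, and 1 of all genes with loess centring, the raised floor and the floor on the mean. Depth is not defined for these arrays; signal over background limits the genes that miss the floor on some array, since 30 of the 42 reached it on all 4.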
